A study of Homo sapiens with 6 samples.

Results

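Glycolysis, lactate and pyruvate entry genes were examined in cardiomyocytes exposed to alcohol, without and with losartan. The set holds 43 genes listed by name for their role: glucose uptake, hexokinase, phosphoglucomutase, the enzymes of upper and lower glycolysis, the control of phosphofructokinase, lactate dehydrogenase and lactate transport, the mitochondrial pyruvate carrier, and pyruvate dehydrogenase with its kinases and phosphatase. All 43 were found by symbol among the 21134 genes of the expression table, and 41 of them were among the 14926 genes with enough reads to test. HKDC1 and PDK4 were not tested and lay between 0 and 0.16 FPKM in every library. FPKM is the estimated fragment count of a gene scaled by its length and by the depth of the library, so it allows levels to be compared between genes.

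Glycolysis converts glucose to pyruvate in the cytosol and yields ATP without oxygen. Pyruvate is either reduced to lactate by lactate dehydrogenase and exported, or carried into mitochondria and oxidised to acetyl-CoA by the pyruvate dehydrogenase complex, which kinases of the PDK family switch off. Cardiomyocytes made from stem cells are immature and rely on glycolysis more than the adult heart does, and many glycolytic genes are known targets of hypoxia-inducible factor, HIF-1.

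The series holds 6 RNA-seq libraries of cardiomyocytes called hiPSC-CMs by the study. All came from 1 line, H9, known as a human embryonic stem cell line. The control group (2 libraries) had no treatment by its label, while the study's text also calls the comparison one with vehicle. The alcohol group (2 libraries) was given 100 mM alcohol for 24 h, and the co-treated group (2 libraries) was given 100 mM alcohol and 1 μM losartan, a blocker of the angiotensin II receptor AT1R, for 24 h. The study's text calls this arm both a co-treatment and a pretreatment, and the label, which names no earlier start for losartan, is followed here. No group received losartan without alcohol. The 2 libraries of a group are named repeats, and nothing says that they came from separate cultures, so the p-values below measure the spread between these libraries, which may be technical.

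The libraries held between 4898287 and 5051448 expected counts, so depth was nearly equal. Replicates correlated at 0.975 to 0.978 on the log2 CPM scale, but alcohol replicate 2 stood apart from alcohol replicate 1 in many of the genes described here, and counts are therefore given with and without it. Of 12 cardiomyocyte markers all were measured, and they summed to between 20870.4 FPKM in alcohol replicate 2 and 28584 FPKM in control replicate 1. MYL7 was the highest of them, at 9321 FPKM in alcohol replicate 2 and 16180 FPKM in control replicate 2, and weighs heavily in the sum. The pluripotency markers SOX2 and TDGF1, the endothelial markers PECAM1, CDH5 and VWF and the fibroblast gene TCF21 were under 1 FPKM in every library. Other markers of these lists were higher. POU5F1 and NANOG (pluripotency) were at 3.95 to 10.18 and 2.54 to 5.50 FPKM, and KDR (endothelial) at 3.70 to 7.70 FPKM. The 9 fibroblast markers summed to 422 to 518 FPKM, and the 7 endoderm and liver markers to 44.1 to 60.6 FPKM.

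Promoter windows are shown for the 4 genes with the smallest p-values between alcohol and control (ENO1, PGK1, PGAM1 and LDHA) and for LDHB, the partner isoform of LDHA; this choice was made after the values were seen. Each window is the 250 bases before the most upstream start of the gene in RefSeq (GRCh38.p14), 5′ to 3′ on the strand of the gene: ENO1 chr1:8878687-8878936 (- strand), PGK1 chrX:78103998-78104247 (+ strand), PGAM1 chr10:97427568-97427817 (+ strand), LDHA chr11:18394313-18394562 (+ strand) and LDHB chr12:21657843-21658092 (- strand). Any other start of a gene was not searched. Capitals mark the letters ACGTG or GCGTG, read on either strand, which are the core letters of the HIF-1 response element.
ENO1: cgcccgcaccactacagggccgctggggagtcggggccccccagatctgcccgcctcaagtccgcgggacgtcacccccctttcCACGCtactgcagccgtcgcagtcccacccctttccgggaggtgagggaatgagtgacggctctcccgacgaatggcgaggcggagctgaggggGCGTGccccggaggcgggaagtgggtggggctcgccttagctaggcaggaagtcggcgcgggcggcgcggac
PGK1: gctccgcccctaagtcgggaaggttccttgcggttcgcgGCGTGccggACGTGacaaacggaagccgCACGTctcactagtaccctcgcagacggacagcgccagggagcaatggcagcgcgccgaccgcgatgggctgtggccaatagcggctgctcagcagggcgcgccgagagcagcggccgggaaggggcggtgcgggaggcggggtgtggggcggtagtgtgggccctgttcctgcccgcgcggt
PGAM1: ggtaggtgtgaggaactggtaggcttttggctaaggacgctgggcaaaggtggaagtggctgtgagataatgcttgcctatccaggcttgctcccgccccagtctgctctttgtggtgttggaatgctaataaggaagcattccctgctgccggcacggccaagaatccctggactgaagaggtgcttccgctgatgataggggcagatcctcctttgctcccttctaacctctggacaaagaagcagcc
LDHA: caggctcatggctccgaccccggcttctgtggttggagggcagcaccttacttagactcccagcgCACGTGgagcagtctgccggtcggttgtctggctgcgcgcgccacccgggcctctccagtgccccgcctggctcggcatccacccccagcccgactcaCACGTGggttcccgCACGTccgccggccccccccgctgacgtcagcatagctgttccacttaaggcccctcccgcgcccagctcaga
LDHB: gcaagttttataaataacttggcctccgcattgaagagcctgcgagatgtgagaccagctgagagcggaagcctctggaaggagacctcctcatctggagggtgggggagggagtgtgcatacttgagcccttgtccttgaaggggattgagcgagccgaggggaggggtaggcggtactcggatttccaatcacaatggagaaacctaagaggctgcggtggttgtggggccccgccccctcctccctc

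The LDHA window held ACGTG at 5 places, counting both strands, so that each CACGTG counts on both. The PGK1 window held ACGTG at 2 places and GCGTG at 1, the ENO1 window held GCGTG at 2, and the PGAM1 and LDHB windows held neither. Windows were at hand for 38 of the 43 genes, all but PDP1, PFKFB2, SLC2A3, SLC2A4 and SLC16A1. ACGTG was present in 13 of these 38 windows (34.2%) and in 22.9% of the 10933 windows of tested genes. For either motif the shares were 57.9% and 56.3%. The 38 windows include those of HKDC1 and PDK4, which were not tested and held neither motif, while the 10933 are of tested genes only. These matches are letters in a window and not measured binding.

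Glycolytic transcripts were among the most abundant in these cells. By mean FPKM over the 6 libraries GAPDH ranked 7 of all genes, LDHB 71, TPI1 88, LDHA 97, ALDOA 99 and ENO1 108, and 41 of the 43 genes reached at least 1 FPKM in every library. The set as a whole summed to 10788 and 9944 FPKM in control, 9268 and 6838 FPKM in alcohol and 10072 and 9784 FPKM in co-treated libraries. In percent of all FPKM this was 2.49 and 2.26 in control, 2.13 and 1.60 in alcohol and 2.37 and 2.25 in co-treated. Both alcohol libraries thus lay below all 4 others, and alcohol replicate 2 was the lowest. In bulk RNA, fewer cells of a type and less RNA per cell cannot be told apart.

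**Figure D1:**
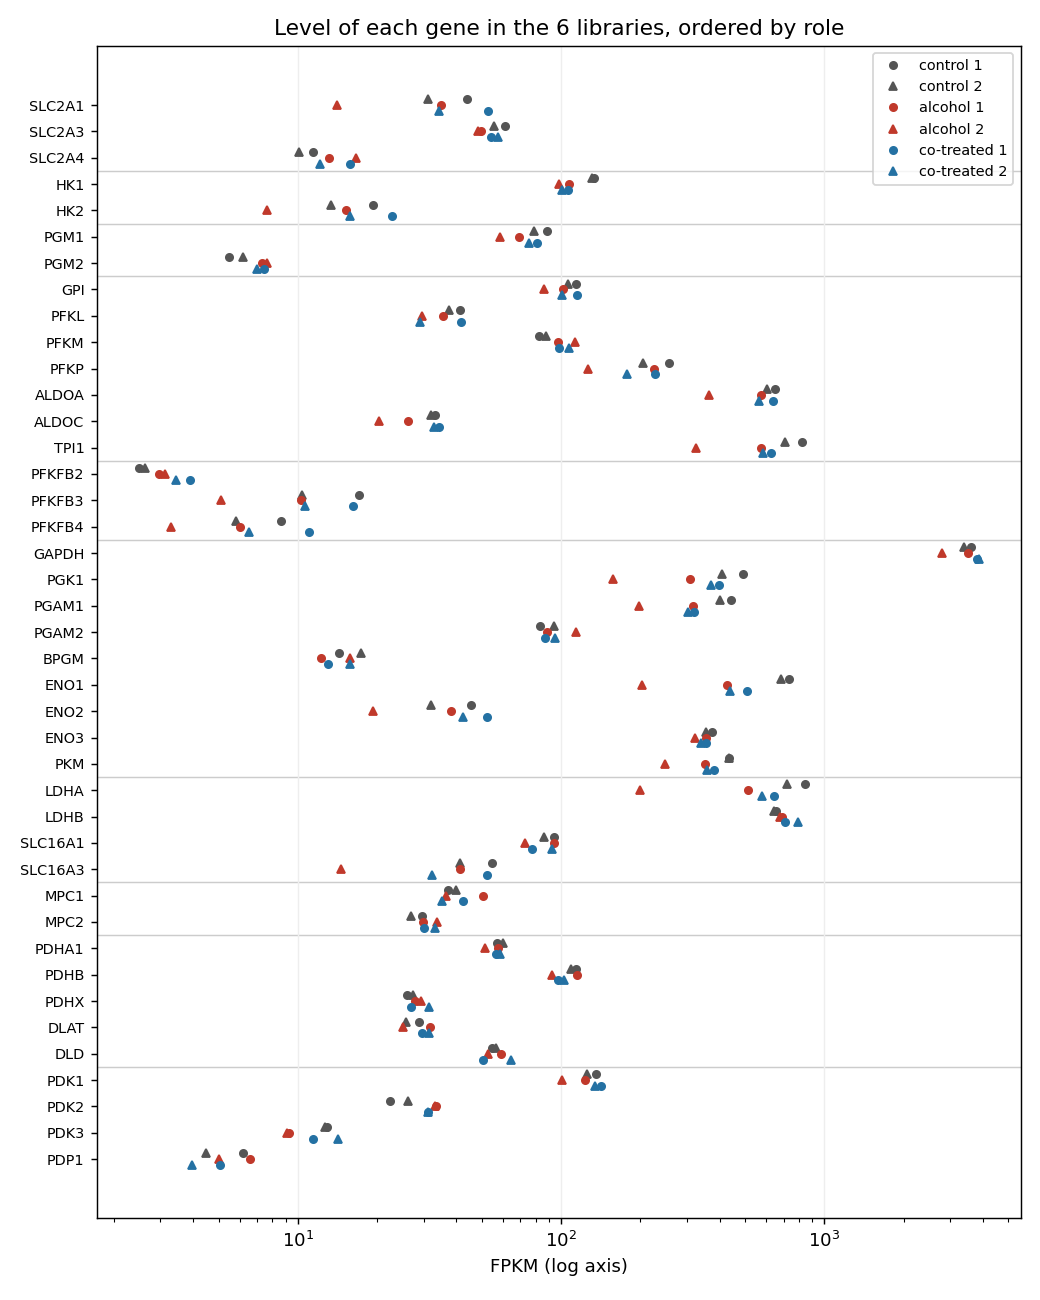
FPKM (log axis) of the 41 tested genes in each of the 6 libraries, grouped by role from glucose uptake (top) to pyruvate dehydrogenase control (bottom); color gives the group and shape the replicate. GAPDH is the highest, at 2798 to 3856 FPKM, and the red triangle of alcohol replicate 2 is the leftmost symbol for ENO1, LDHA, PGK1, TPI1 and SLC16A3.

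The first comparison asks how alcohol alone altered the expression of these genes. After 24 h in 100 mM alcohol, ENO1, LDHA, PGK1, PFKFB3, SLC16A3, TPI1 and PGAM1 had the lowest levels relative to control (log2 fold changes of −1.18 to −0.74), while PDK2, SLC2A4 and PFKM were higher (0.43, 0.43 and 0.26). None of the 41 genes tested passed edgeR's quasi-likelihood F test at an adjusted p under 0.05, against 0.0670% of all genes tested. None passed with DESeq2 (0.629% of the 11453 genes it gave an adjusted p) or limma on log2(FPKM + 1) (0 of all genes). At an unadjusted p under 0.05 there were 17 of 41, against 11.0% of all genes: 14 were lower, against 5.78%, and 3 were higher, against 5.27%. In 16 of the 41 genes both alcohol libraries lay below both control libraries, against 17.7% of all genes, and in 8 both lay above, against 24.7%. The median log2 fold change of the 41 genes was −0.27, and that of all genes −0.0033. A fit that omits 1 library leaves its group without a spread of its own. The spread of the other groups then stands in, so the counts of such fits rest on that assumption. Without alcohol replicate 2 the count at an unadjusted p under 0.05 was 7 (against 5.42% of all genes in that fit) and the median −0.09. Without alcohol replicate 1 they were 28 (against 12.6%) and −0.39, and 13 genes had an adjusted p under 0.05 by edgeR, against 1.42% of all genes: SLC2A1, HK2, PFKP, ALDOA, TPI1, PFKFB3, PGK1, PGAM1, ENO1, ENO2, PKM, LDHA and SLC16A3. Without control replicate 1 the count at an unadjusted p under 0.05 was 8 (against 7.39%).

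**Figure D2:**
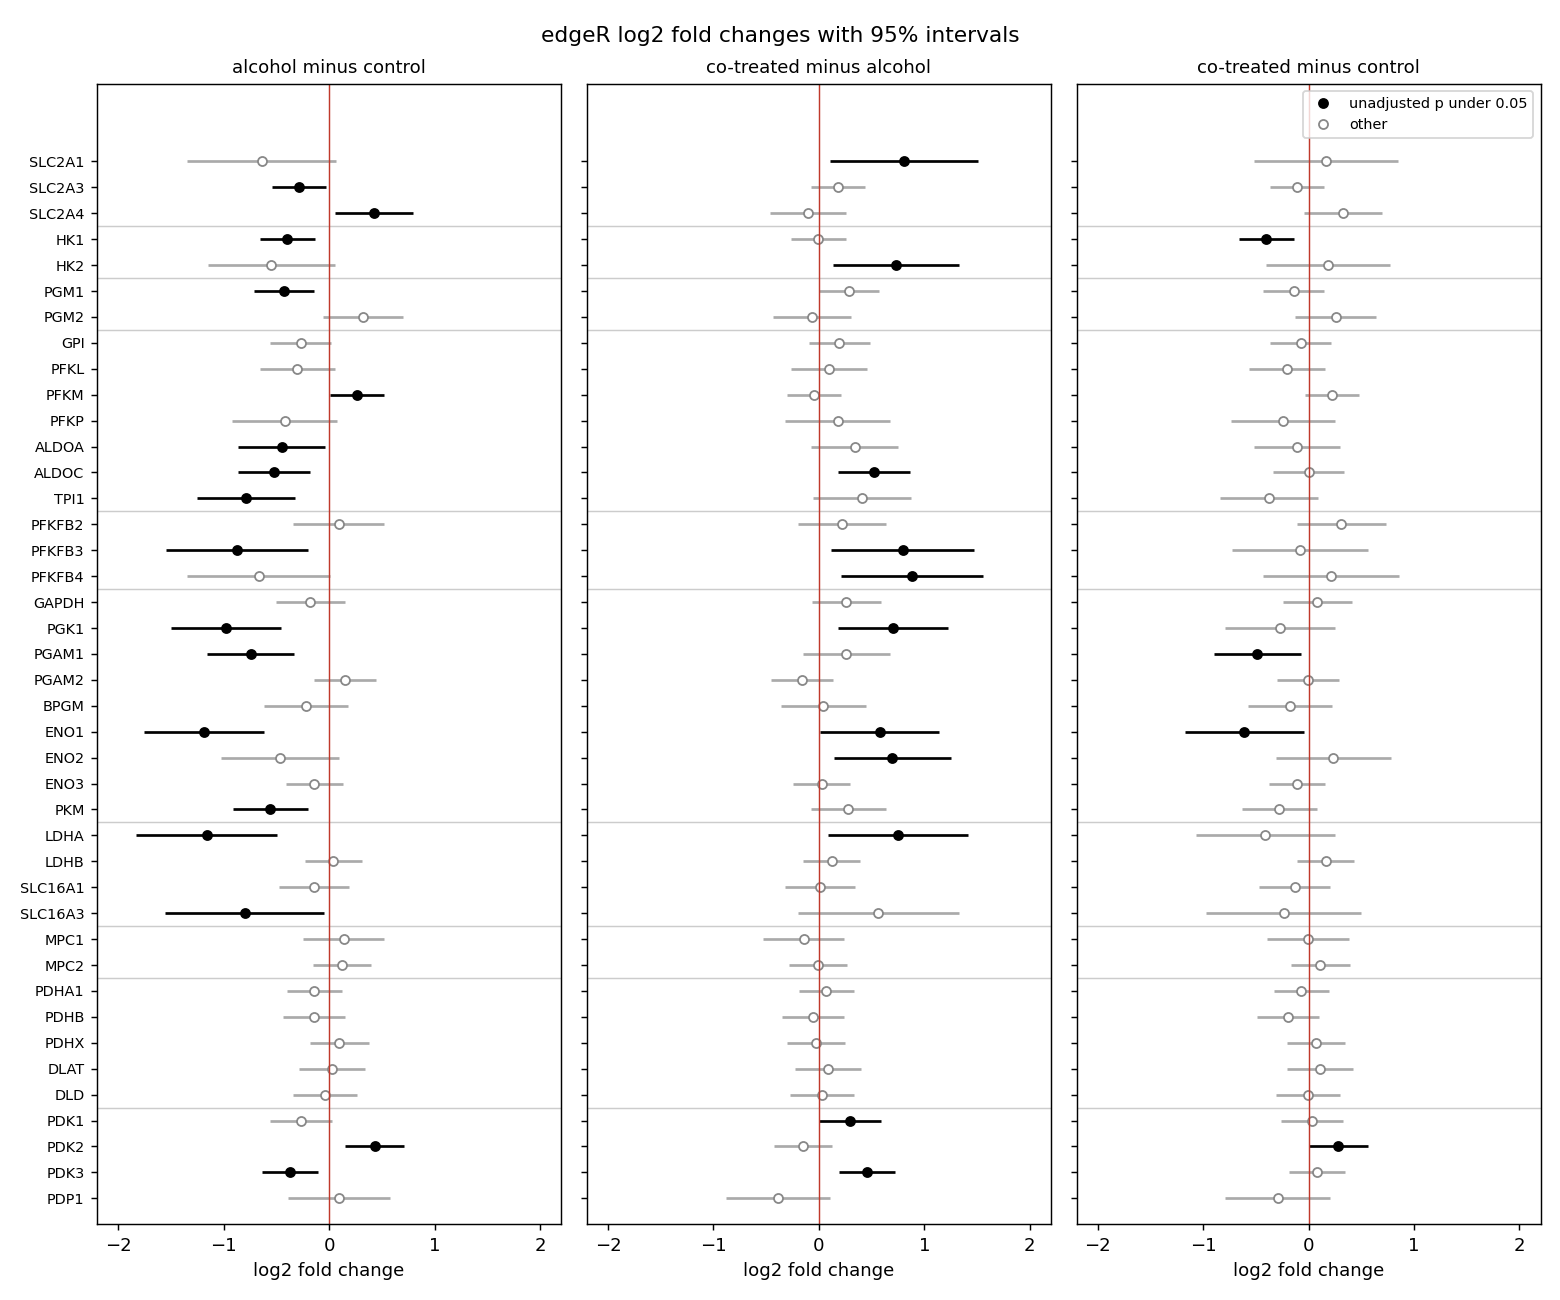
Log2 fold change of each tested gene with its 95% interval from edgeR (all 6 libraries in 1 fit) for alcohol minus control, co-treated minus alcohol and co-treated minus control; filled points have an unadjusted p under 0.05. In the left panel 14 filled points lie below 0 and 3 above, in the middle panel all 11 lie above 0, and in the right panel 3 lie below and 1 above.

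Lower glycolysis, the steps from glyceraldehyde phosphate to pyruvate, had 9 genes tested. Between alcohol and control 8 of them had a log2 fold change below 0 (median −0.46), against 50.6% of all genes. ENO1 (NCBI Gene 2023), the ubiquitous enolase, was at 735 and 683 FPKM in control, 428 and 202 FPKM in alcohol and 509.6 and 439 FPKM in co-treated. The 2 alcohol libraries were the lowest and did not overlap with control. The log2 fold change between alcohol and control was −1.18 (standard error, SE, 0.26, 95% interval −1.75 to −0.62, unadjusted p = 0.000577, adjusted p = 0.119 by edgeR), the smallest p of the set. PGK1 (NCBI Gene 5230), phosphoglycerate kinase, which makes the first ATP of the pathway, was at 489.9 and 408 FPKM in control, 308 and 157 FPKM in alcohol and 398 and 372 FPKM in co-treated. Its alcohol libraries lay below all 4 others, with a log2 fold change of −0.98 (SE 0.24, 95% interval −1.50 to −0.46, adjusted p = 0.151 by edgeR). Without alcohol replicate 2 the log2 fold changes were −0.71 for ENO1 and −0.55 for PGK1.

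PGAM1, the phosphoglycerate mutase of most tissues, was at 444 and 401 FPKM in control, 318 and 197 FPKM in alcohol and 321 and 304 FPKM in co-treated. All 4 libraries with alcohol lay below both control libraries, and the log2 fold change between alcohol and control was −0.74 (SE 0.19, adjusted p = 0.170 by edgeR). PKM, pyruvate kinase, was at 434 FPKM in both control libraries, 353 and 249 FPKM in alcohol and 382 and 359 FPKM in co-treated. The groups alcohol and control did not overlap (log2 fold change −0.56, SE 0.16, adjusted p = 0.219 by edgeR). Without alcohol replicate 2 the values were −0.41 for PGAM1 and −0.29 for PKM.

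GAPDH, the dehydrogenase often used as a reference gene, was at 3604 and 3389 FPKM in control, 3531 and 2798 FPKM in alcohol and 3801 and 3856 FPKM in co-treated. The alcohol and control libraries overlapped, and the log2 fold change was −0.18 (95% interval −0.51 to 0.15). The muscle isoforms PGAM2 and ENO3 had log2 fold changes of 0.16 (95% interval −0.14 to 0.45) and −0.14 (95% interval −0.41 to 0.13), so neither differed from control beyond its interval. BPGM, bisphosphoglycerate mutase, was at −0.22. ENO2, the neuronal enolase, was at 45.3 and 32.1 FPKM in control, 38.0 and 19.3 FPKM in alcohol and 52.2 and 42.3 FPKM in co-treated; alcohol and control overlapped. The GENCODE annotation names 62 pseudogenes of GAPDH, 13 of PGAM1 and 6 of LDHA, and the reads these may share with their parent genes are not told apart here. ENO1 overlaps the antisense gene ENO1-AS1, and PGK1 overlaps ATP7A and PGAM4. Whether counting used strand is not given in the sources used here.

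Upper glycolysis, the steps from glucose phosphate to triose phosphates, showed 6 of 7 genes with a log2 fold change below 0 (median −0.42). The share over all genes was 50.6%. TPI1, triose phosphate isomerase, was at 821 and 707 FPKM in control, 576 and 327 FPKM in alcohol and 628 and 587 FPKM in co-treated. Alcohol lay below control in both libraries (log2 fold change −0.79, SE 0.22, adjusted p = 0.179 by edgeR; −0.41 without alcohol replicate 2). ALDOC, the brain-type aldolase, was at 33.1 and 31.9 FPKM in control, 26.1 and 20.3 FPKM in alcohol and 34.4 and 32.8 FPKM in co-treated, and its alcohol libraries were below all 4 others. Its log2 fold change was −0.52 (SE 0.16, adjusted p = 0.241 by edgeR). ALDOA, the main aldolase of muscle, had a log2 fold change of −0.45 (adjusted p = 0.402). Without alcohol replicate 2 the values were −0.32 for ALDOC and −0.13 for ALDOA. GPI (glucose phosphate isomerase), PFKL and PFKP (the liver and platelet phosphofructokinases) had log2 fold changes of −0.27, −0.30 and −0.42, each with an unadjusted p between 0.0679 and 0.0923.

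PFKM, the muscle phosphofructokinase, differed in direction from the other upper enzymes. It was at 82.7 and 87.4 FPKM in control, 97.5 and 113 FPKM in alcohol and 97.9 and 107 FPKM in co-treated. Both control libraries lay below all 4 others, and the log2 fold change between alcohol and control was 0.26 (SE 0.12, unadjusted p = 0.0440, adjusted p = 0.432 by edgeR).

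The PFKFB enzymes make and break the fructose bisphosphate that activates phosphofructokinase. PFKFB3 was at 17.0 and 10.3 FPKM in control, 10.3 and 5.10 FPKM in alcohol and 16.1 and 10.7 FPKM in co-treated. Alcohol replicate 1 and control replicate 2 were nearly equal, at 10.27 and 10.34 FPKM, and the log2 fold change was −0.87 (SE 0.31, 95% interval −1.55 to −0.20, adjusted p = 0.313 by edgeR). It was −0.42 without alcohol replicate 2 and also −0.42 without control replicate 1. PFKFB4 was at 8.63 and 5.80 FPKM in control, 6.04 and 3.29 FPKM in alcohol and 11.0 and 6.50 FPKM in co-treated, with overlap of alcohol and control (log2 fold change −0.67, unadjusted p = 0.0537). PFKFB2, the cardiac form, was at 2.49 to 3.90 FPKM, with a log2 fold change of 0.09 (95% interval −0.34 to 0.52).

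Lactate dehydrogenase showed a difference between its isoform genes. LDHA (NCBI Gene 3939), the subunit that favours lactate formation, was at 847 and 718 FPKM in control, 512 and 199 FPKM in alcohol and 642 and 578 FPKM in co-treated. The alcohol libraries were the lowest, with a log2 fold change from control of −1.16 (95% interval −1.83 to −0.50, adjusted p = 0.177 by edgeR). LDHB (NCBI Gene 3945), the heart-type subunit, was at 656 and 644 FPKM in control, 692 and 679 FPKM in alcohol and 707 and 795 FPKM in co-treated. Its log2 fold change was 0.04 (95% interval −0.23 to 0.31). The intervals of LDHA and LDHB in alcohol against control did not overlap. Leaving out alcohol replicate 2 moved the log2 fold change of LDHA to −0.61, and leaving out alcohol replicate 1 moved it to −2.04.

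SLC16A3, the lactate exporter MCT4, was at 54.7 and 41.3 FPKM in control, 41.4 and 14.6 FPKM in alcohol and 52.2 and 32.2 FPKM in co-treated. Alcohol replicate 1 was level with control replicate 2, and the log2 fold change of −0.80 (SE 0.35, adjusted p = 0.418 by edgeR) was −0.21 without alcohol replicate 2. SLC16A1, the transporter MCT1, was at 72.8 to 94.3 FPKM, with a log2 fold change of −0.14 (95% interval −0.48 to 0.19).

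At glucose entry, SLC2A3 (GLUT3) was the transporter gene with the highest level. It was at 61.0 and 55.6 FPKM in control, 49.7 and 48.5 FPKM in alcohol and 54.3 and 57.6 FPKM in co-treated, with a log2 fold change of −0.29 (SE 0.12, adjusted p = 0.398 by edgeR; −0.19 without control replicate 1). SLC2A4, the insulin-responsive GLUT4, was at 11.4 and 10.1 FPKM in control, 13.1 and 16.7 FPKM in alcohol and 15.8 and 12.1 FPKM in co-treated. Control was the lowest group (0.43, SE 0.17, adjusted p = 0.375 by edgeR; 0.28 without alcohol replicate 2). SLC2A1, the basal transporter GLUT1, was at 44.0 and 31.1 FPKM in control, and its alcohol libraries, at 35.1 and 14.0 FPKM, overlapped with them (−0.64, unadjusted p = 0.0712).

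HK1, the hexokinase of most tissues, was at 134 and 131 FPKM in control, 108 and 98.5 FPKM in alcohol and 106 and 101 FPKM in co-treated. All 4 libraries with alcohol lay below both control libraries, and replicates were close (log2 fold change −0.40, SE 0.12, adjusted p = 0.237 by edgeR). HK2, the inducible muscle hexokinase, was at 19.3 and 13.4 FPKM in control, 15.2 and 7.61 FPKM in alcohol and 22.8 and 15.8 FPKM in co-treated. Its alcohol and control libraries overlapped (−0.55, unadjusted p = 0.0707). PGM1, the phosphoglucomutase that links glycolysis to glycogen, was at 88.3 and 78.8 FPKM in control, 69.1 and 58.3 FPKM in alcohol and 81.2 and 75.4 FPKM in co-treated, with a log2 fold change of −0.43 (SE 0.13, adjusted p = 0.247 by edgeR; −0.27 without alcohol replicate 2). PGM2 was at 5.48 to 7.65 FPKM (0.32, unadjusted p = 0.0908).

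At the entry of pyruvate into mitochondria the log2 fold changes between alcohol and control were close to 0. MPC1 and MPC2, the subunits of the pyruvate carrier, had log2 fold changes of 0.14 (95% interval −0.25 to 0.52) and 0.12 (95% interval −0.16 to 0.40). MPC1 was at 37.1 and 40.0 FPKM in control, 50.4 and 36.4 FPKM in alcohol and 42.3 and 35.3 FPKM in co-treated. MPC2 was at 29.5 and 26.95 FPKM in control, 29.8 and 33.6 FPKM in alcohol and 30.15 and 33.1 FPKM in co-treated. The 5 genes of the pyruvate dehydrogenase complex (the E1 subunits PDHA1 and PDHB, the E2 subunit DLAT, the E3 subunit DLD and the E3-binding protein PDHX) lay between −0.14 and 0.10 on the log2 fold change scale, with a median of −0.03. PDHB was at 114 and 109 FPKM in control, 115 and 92.0 FPKM in alcohol and 97.7 and 103 FPKM in co-treated, and PDHA1 at 57.0 and 59.9 FPKM, 57.7 and 51.4 FPKM, and 56.4 and 58.7 FPKM. All of the intervals of these 5 genes and of MPC1 and MPC2 held 0.

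Among the PDK genes, whose kinases inhibit pyruvate dehydrogenase, the directions differed. PDK1, the highest of them and a HIF-1 target, was at 136 and 125 FPKM in control, 123 and 100.4 FPKM in alcohol and 142 and 134 FPKM in co-treated (log2 fold change −0.26, unadjusted p = 0.0749). PDK2 was at 22.35 and 26.2 FPKM in control, 33.4 and 33.0 FPKM in alcohol and 31.1 and 31.2 FPKM in co-treated. Control was again the lowest group, and the alcohol replicates were nearly equal (0.43, SE 0.13, 95% interval 0.15 to 0.71, adjusted p = 0.226 by edgeR). PDK3 was at 12.9 and 12.7 FPKM in control, 9.27 and 9.09 FPKM in alcohol and 11.4 and 14.2 FPKM in co-treated. Its alcohol libraries were the lowest and close to each other (−0.37, SE 0.12, adjusted p = 0.274 by edgeR; −0.23 without control replicate 1). PDP1, a phosphatase that switches the complex on, was at 3.94 to 6.57 FPKM (0.09, 95% interval −0.39 to 0.58).

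**Figure D3:**
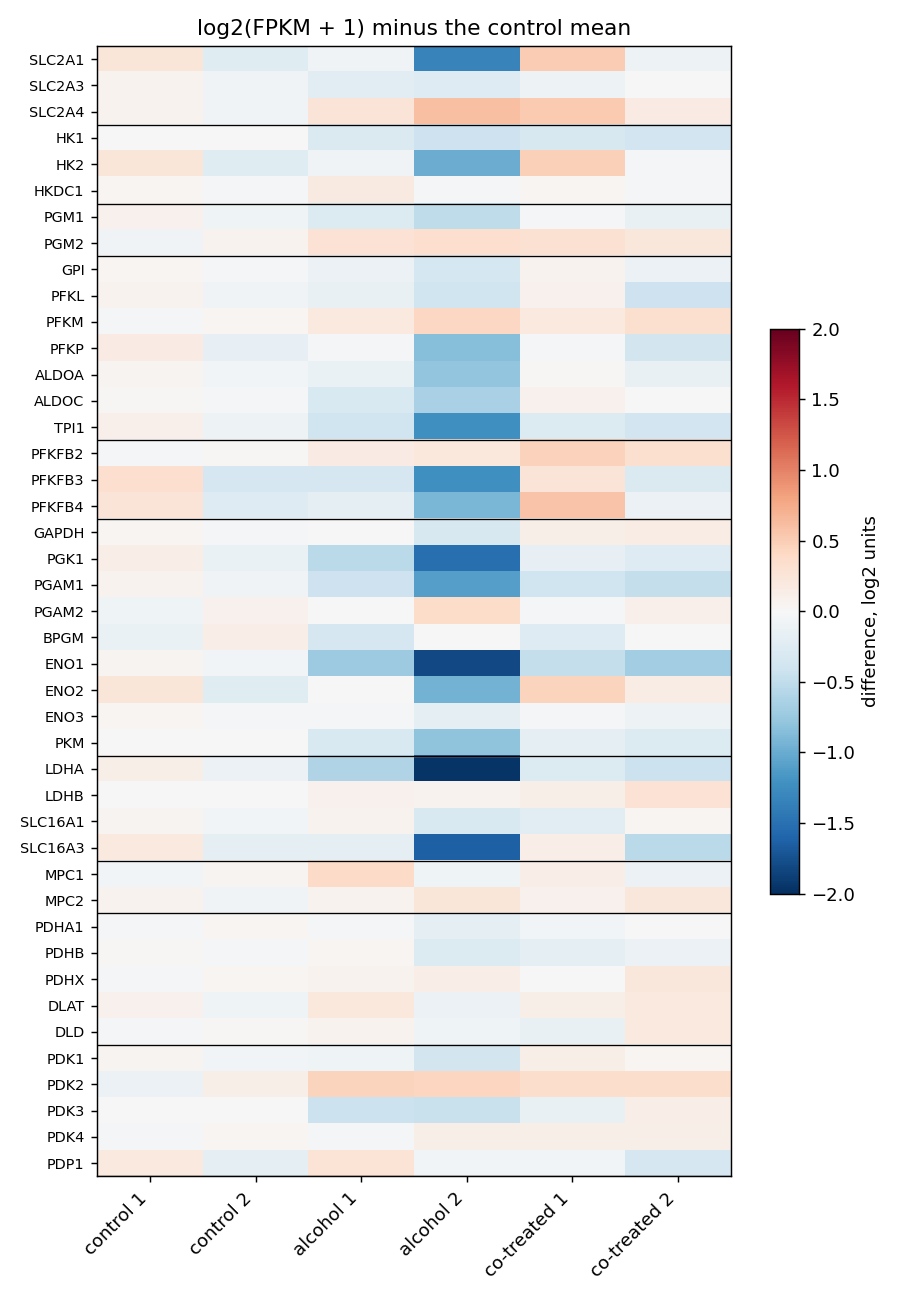
Difference of log2(FPKM + 1) from the mean of the 2 control libraries for the 43 genes (rows, grouped by role) in the 6 libraries (columns); blue is lower and red is higher, on a scale from −2 to 2. The alcohol replicate 2 column is the bluest, with LDHA at −1.96 and ENO1 at −1.80, while alcohol replicate 1 has −0.61 and −0.73 for them.

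The second comparison asks how losartan altered these genes in cells that also received alcohol. Higher levels with losartan than without were seen for PFKFB4, SLC2A1, PFKFB3, LDHA, HK2, PGK1 and ENO2 (log2 fold changes of 0.88 to 0.70). None of the 41 genes passed edgeR's test at an adjusted p under 0.05, against 0.0134% of all genes tested, and none passed with DESeq2 (0.0335% of all genes) or limma (0.00670%). At an unadjusted p under 0.05 there were 11 of 41, against 5.55% of all genes: all 11 were higher, against 2.84%, and none was lower, against 2.71%. In 17 of the 41 genes both co-treated libraries lay above both alcohol libraries, against 18.0% of all genes, and in 1, PDK2, both lay below, against 14.3%. The median log2 fold change was 0.18, and that of all genes 0.0023. This comparison uses the same alcohol libraries as the first, and the values of both are set side by side and not tested against each other. In fits that omit 1 library, the spread of the affected group again comes from the other groups. Leaving out alcohol replicate 2 took the count at an unadjusted p under 0.05 to 2 (against 5.14% of all genes in that fit) and the median to 0.03. Leaving out alcohol replicate 1 took them to 20 (against 5.98%) and 0.30, and 8 genes had an adjusted p under 0.05 by edgeR, against 0.155% of all genes: SLC2A1, HK2, TPI1, PGK1, ENO1, ENO2, LDHA and SLC16A3. Leaving out co-treated replicate 1 gave 2 (against 8.17%), and leaving out co-treated replicate 2 gave 7 (against 4.55%).

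The smallest p was that of PDK3, whose level was 0.45 higher on the log2 scale with losartan (SE 0.12, 95% interval 0.19 to 0.72, unadjusted p = 0.00278, adjusted p = 0.646 by edgeR). Its replicates were close in the alcohol group, and the log2 fold change was 0.44 without alcohol replicate 2. ALDOC followed at 0.52 (SE 0.16, adjusted p = 0.796 by edgeR), and its 2 co-treated libraries were level with control. PGK1 was at 0.71 (95% interval 0.19 to 1.23), PFKFB4 at 0.88 (95% interval 0.21 to 1.56), ENO2 at 0.70 (95% interval 0.14 to 1.26) and HK2 at 0.73 (95% interval 0.14 to 1.33). Without alcohol replicate 2 these 4 were at 0.28, 0.48, 0.26 and 0.29, and ALDOC was at 0.32. Without co-treated replicate 1 PFKFB4 was at 0.48 and HK2 at 0.46.

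SLC2A1 was at 0.81 (95% interval 0.10 to 1.51), but co-treated replicate 2, at 34.4 FPKM, lay below alcohol replicate 1, at 35.1 FPKM. PFKFB3 was at 0.79, LDHA at 0.75, ENO1 at 0.58 and PDK1 at 0.30, with unadjusted p between 0.0249 and 0.0465. Without alcohol replicate 2 these were at 0.34, 0.20, 0.10 and 0.13, and SLC2A1 was at 0.27. Without co-treated replicate 1 SLC2A1 and PFKFB3 were both at 0.48. For LDHA, ENO1 and PDK1 both co-treated libraries lay above both alcohol libraries. HK1 was at −0.0046 (95% interval −0.27 to 0.26), and the co-treated and alcohol libraries overlapped. The 5 genes of the pyruvate dehydrogenase complex lay between −0.06 and 0.09.

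The third comparison sets alcohol with losartan against untreated cells. HK1, PGAM1 and ENO1 were lower than control and PDK2 was higher, each at an unadjusted p under 0.05. None of the 41 genes passed at an adjusted p under 0.05 by edgeR, against 0.362% of all genes tested. None passed by DESeq2 (1.12% of the 11453 genes it gave an adjusted p) or limma (0.0134% of all genes). At an unadjusted p under 0.05 there were 4 of 41, against 12.6% of all genes: 3 were lower, against 6.37%, and 1 was higher, against 6.26%. Both co-treated libraries lay below both control libraries in 8 of the 41 genes, against 16.3% of all genes, and above in 9, against 27.1%. The median log2 fold change was −0.07, and that of all genes −0.0017. In fits that omit 1 library, the spread of the affected group is here too that of the other groups. Without co-treated replicate 2 the median was 0.0046 and the count 2 (against 8.91% of all genes in that fit), and without control replicate 1 the count was 1 (against 8.90%).

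HK1 had the smallest p, at a log2 fold change of −0.40 (SE 0.12, 95% interval −0.66 to −0.14, adjusted p = 0.175 by edgeR), beside −0.40 with alcohol alone. ENO1 was at −0.61 (SE 0.26, adjusted p = 0.346 by edgeR) and PGAM1 at −0.48 (SE 0.19, adjusted p = 0.309 by edgeR). Fitted by edgeR without the alcohol libraries, ENO1 had an adjusted p of 0.0394. It was the 1 gene of the 41 called in that fit, against 1.08% of all genes. PDK2 was at 0.28 (SE 0.13, adjusted p = 0.387 by edgeR), SLC2A4 at 0.33 (unadjusted p = 0.0777) and PFKM at 0.22 (unadjusted p = 0.0879). LDHA was at −0.41 (95% interval −1.07 to 0.25) and PGK1 at −0.27 (95% interval −0.79 to 0.25). ALDOC was at 0.000445 (95% interval −0.33 to 0.34), and its libraries overlapped. For LDHA, PGK1, TPI1 and PKM both co-treated libraries lay below both control libraries.

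The genes were also set out as shares of the summed FPKM of their family, for 11 families. LDHA made up 56.4% and 52.7% of lactate dehydrogenase in control, 42.5% and 22.7% in alcohol and 47.6% and 42.1% in co-treated. Each library with alcohol lay below control, and co-treated replicate 2 lay below alcohol replicate 1. ENO1 made up 63.7% and 63.9% of enolase in control, 52.1% and 37.2% in alcohol and 55.5% and 53.6% in co-treated, so that the 3 groups did not overlap. In alcohol replicate 2 the muscle enolase ENO3 held the larger share, 59.3%.

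PGAM1 made up 84.2% and 81.1% of the 2 phosphoglycerate mutase genes in control, 78.3% and 63.3% in alcohol and 78.7% and 76.3% in co-treated. PFKM made up 21.7% and 26.5% of phosphofructokinase in control, 27.1% and 41.9% in alcohol and 26.7% and 34.1% in co-treated. PDK2 made up 13.1% and 16.0% of the PDK genes in control, 20.2% and 23.2% in alcohol and 16.9% and 17.4% in co-treated. The shares of PGAM2, PFKM and PDK2 were thus larger in every library with alcohol than in both control libraries.

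The other families and genes varied. PDK3 made up 7.55% and 7.76% of the PDK genes in control, 5.60% and 6.37% in alcohol and 6.19% and 7.89% in co-treated. HK2 made up 12.6% and 9.28% of the hexokinase genes in control, 12.4% and 7.17% in alcohol and 17.7% and 13.5% in co-treated, with overlap of alcohol and control. SLC16A3 made up 36.8% and 32.4% of the lactate transporter genes in control, 30.5% and 16.7% in alcohol and 40.3% and 25.9% in co-treated. ALDOA held between 94.5% and 95.7% of the aldolase genes in every library. PGM2 held 5.84% and 7.26% of phosphoglucomutase in control and 8.36% to 11.6% in the libraries with alcohol, and SLC2A4 held 9.76% and 10.4% of the glucose transporter genes in control and 11.6% to 21.1% in the libraries with alcohol. For SLC2A1 the shares of 37.8% and 32.1% in control and 35.8% and 17.7% in alcohol overlapped. With 2 libraries a group an exact permutation test cannot go below p = 0.333, so no test is given for these shares.

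**Figure D4:**
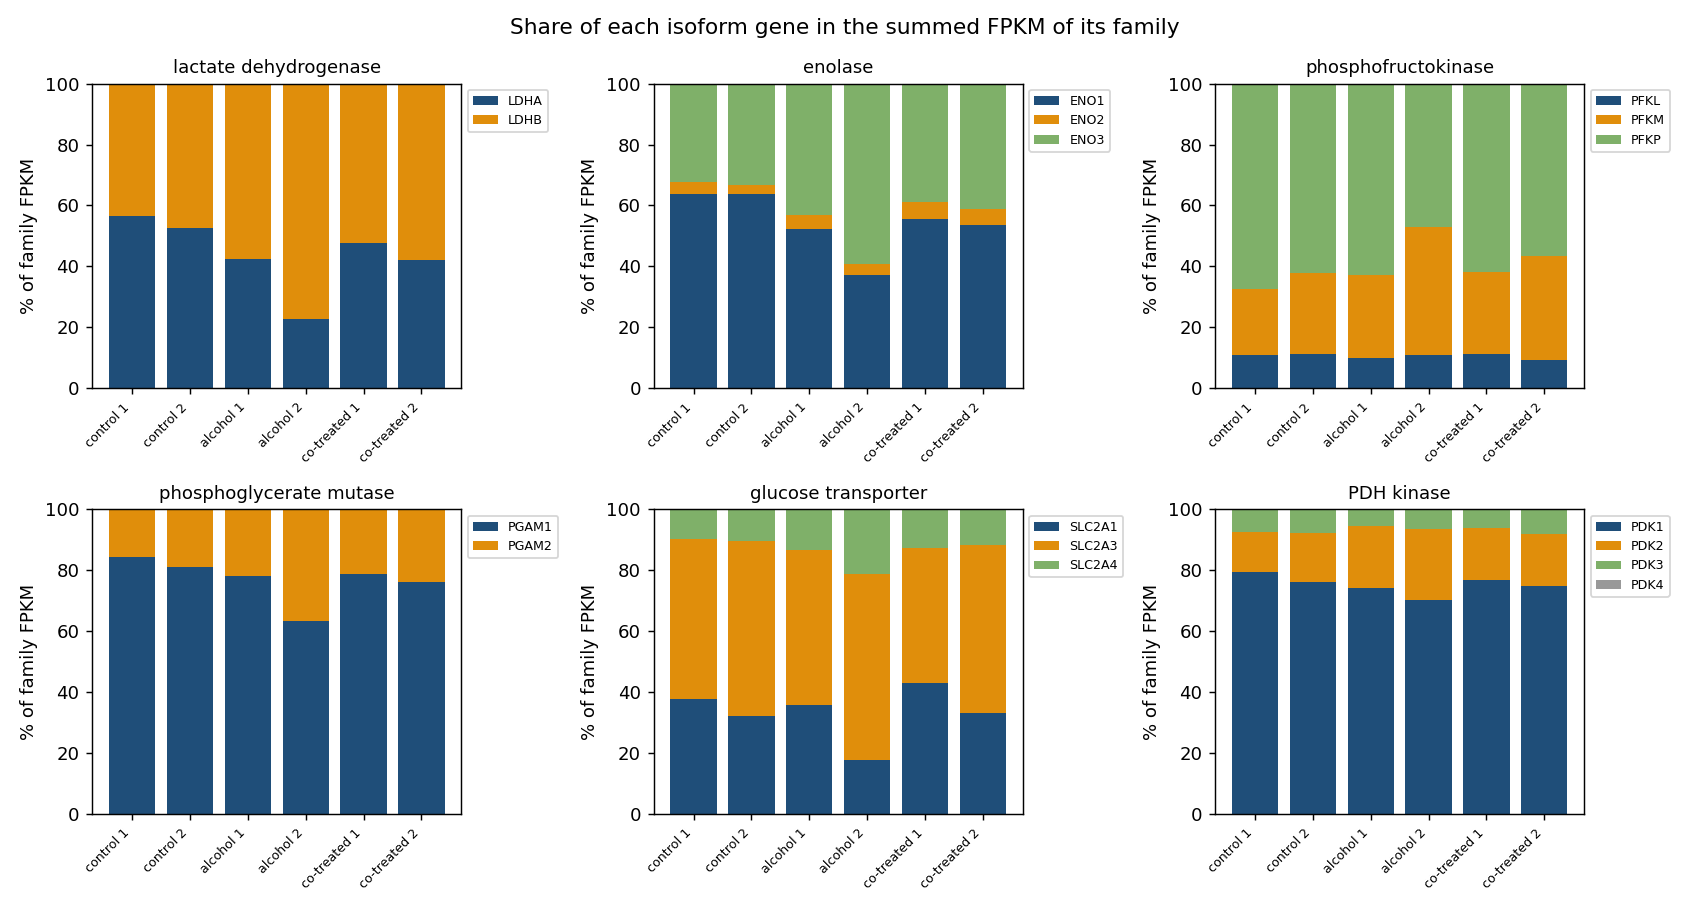
Share of each isoform gene in the summed FPKM of its family (percent, stacked to 100) in the 6 libraries, for 6 families. The share of LDHA is 56.4% in control replicate 1 and 22.7% in alcohol replicate 2, and that of ENO1 63.7% and 37.2%.

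Replicates within a group also differed in these genes. Of the 41 genes, 36 were higher in alcohol replicate 1 than in alcohol replicate 2 (87.8%, against 49.7% of all genes), with a median difference of 0.40 in log2 CPM. In control 31 of 41 were higher in replicate 1 (75.6%, against 49.7%; median 0.15), and in co-treated 27 of 41 (65.9%, against 51.1%; median 0.07). The difference between the 2 alcohol libraries was thus larger than the median log2 fold change between alcohol and control. The 5 smooth muscle markers were also lowest in alcohol replicate 2: they summed to 1939.6 and 1699.9 FPKM in control, 1463 and 730.4 FPKM in alcohol and 1005 and 1044 FPKM in co-treated, with ACTA2 at 203 FPKM in alcohol replicate 2 and 580.2 FPKM in control replicate 2. The cardiomyocyte markers summed to 28584 and 28104 FPKM, 27664 and 20870.4 FPKM, and 23710.3 and 25909 FPKM in the same order. That sum follows MYL7, at 14512 and 16180 FPKM, 12612 and 9321 FPKM, and 10240.5 and 11846.5 FPKM. Between alcohol and control 5 of the 12 markers had a log2 fold change below 0, against 50.6% of all genes, with a median of 0.02. The part of the smooth muscle and cardiomyocyte markers in the results was not tested.

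**Figure D5:**
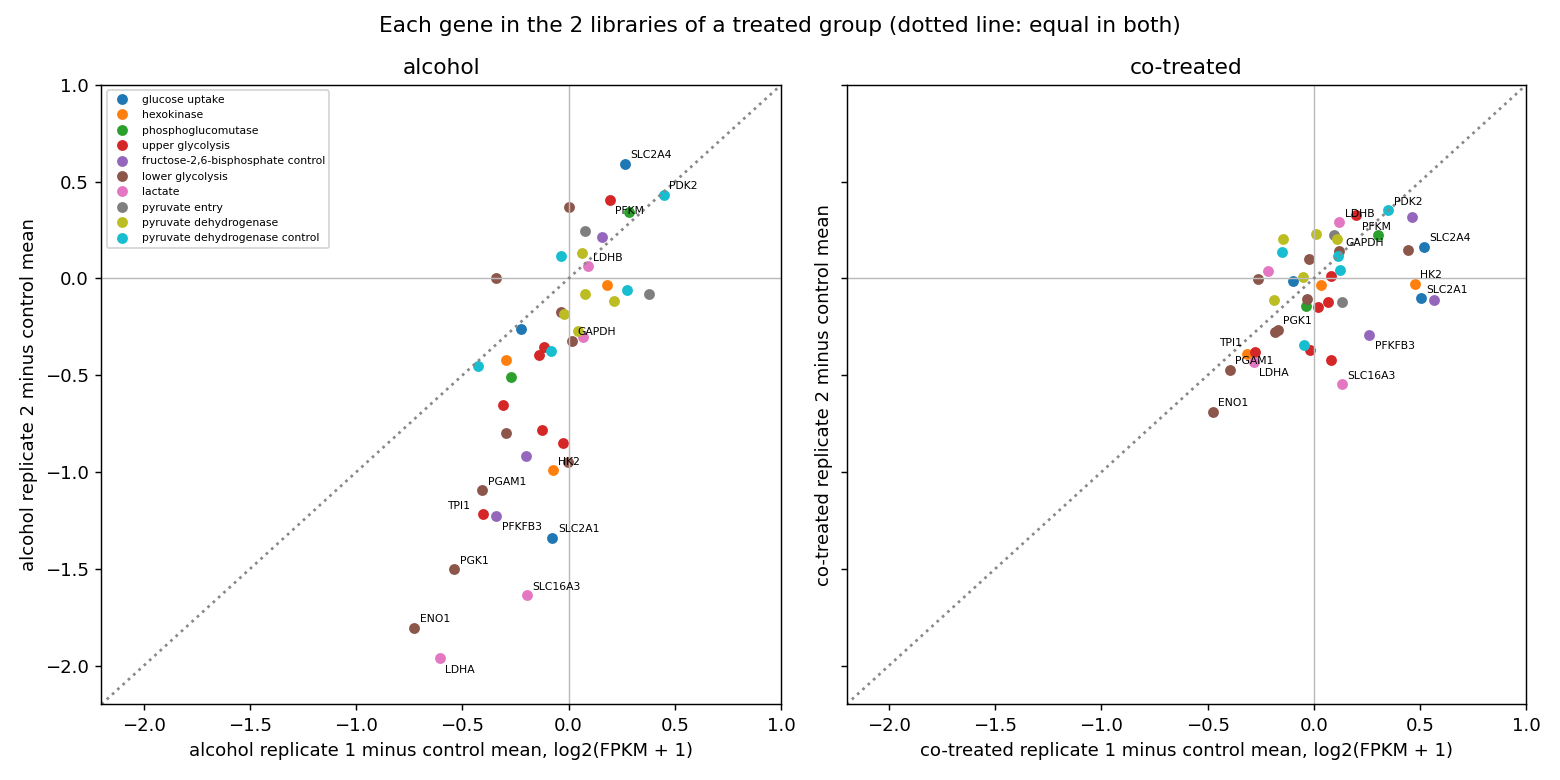
Each gene in replicate 1 (x axis) and replicate 2 (y axis) of the alcohol group (left) and the co-treated group (right), as the difference of log2(FPKM + 1) from the control mean; color gives the role and the dotted line marks equal values. On the left LDHA, ENO1, PGK1, SLC16A3 and SLC2A1 lie well below the dotted line, with LDHA at −0.61 in replicate 1 and −1.96 in replicate 2, while PDK2 and LDHB lie near it.

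Other genes of the pathway were examined from lists chosen by function. Between alcohol and control GBE1, described below, passed with DESeq2 but not with limma. No other gene of these lists passed with either. Of 24 further isoform and transporter genes 20 were listed and 13 were tested. None passed at an adjusted p under 0.05 by edgeR between alcohol and control, against 0.0670% of all genes. At an unadjusted p under 0.05 there were 2, against 11.0% of all genes: LDHD, a mitochondrial D-lactate dehydrogenase (0.97, from 1.66 and 1.57 FPKM in control to 2.25 and 4.34 FPKM in alcohol), and SLC2A2, the liver glucose transporter GLUT2 (−0.45). The median log2 fold change of the 13 genes was 0.07. BSG, which escorts the lactate transporters to the membrane, was at 0.23 (unadjusted p = 0.101).

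Glycogen metabolism was represented by 11 tested genes. In alcohol against control none passed at an adjusted p under 0.05 by edgeR, against 0.0670% of all genes. At an unadjusted p under 0.05, 3 were lower and 2 higher, against 5.78% and 5.27% of all genes. GBE1, the glycogen branching enzyme, was at 56.5 and 45.2 FPKM in control, 32.2 and 22.7 FPKM in alcohol and 36.2 and 36.0 FPKM in co-treated. All 4 libraries with alcohol lay below control (log2 fold change −0.92, adjusted p = 0.0726 by edgeR). GBE1 was the single gene of the list that passed with DESeq2 in this comparison, against 0.629% of the 11453 genes with a DESeq2 adjusted p. GYS1, glycogen synthase of muscle, was at −0.41 and PYGM, the muscle phosphorylase that breaks glycogen down, at 0.38, with adjusted p of 0.306 and 0.298 by edgeR.

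HIF-1 targets outside glycolysis gave 12 tested genes, with a median log2 fold change of −0.35 in alcohol against control. None was at an adjusted p under 0.05 by edgeR, against 0.0670% of all genes. At an unadjusted p under 0.05, 2 were lower and 1 higher, against 5.78% and 5.27% of all genes. P4HA2, a collagen prolyl hydroxylase, was at −0.86, BNIP3, a mitophagy receptor, at −1.05, and MXI1, an antagonist of MYC, at 0.39. Their adjusted p by edgeR were 0.179, 0.266 and 0.313. BNIP3 was at 211 and 146 FPKM in control, 130 and 44.9 FPKM in alcohol and 194 and 158 FPKM in co-treated. Between co-treated and alcohol none of the 12 was at an adjusted p under 0.05 by edgeR, against 0.0134% of all genes. At an unadjusted p under 0.05, 7 of the 12 were higher there, against 2.84% of all genes, with a median of 0.49. The 13 genes listed summed to 428 and 278 FPKM in alcohol replicates 1 and 2, and to 578 and 482 FPKM in co-treated. The counts of this list were not taken again without alcohol replicate 2. Among 10 tested regulators of glycolysis, TXNIP, which restrains glucose uptake, was at 179 and 188 FPKM in control, 218 and 286 FPKM in alcohol and 286 and 349 FPKM in co-treated. All 4 libraries with alcohol lay above control (0.41 for alcohol against control, adjusted p = 0.305 by edgeR). Between co-treated and control TXNIP was at 0.74 (adjusted p = 0.0506 by edgeR). It was the 1 gene of the 10 that passed with DESeq2 there, against 1.12% of the genes with a DESeq2 adjusted p. TIGAR, a phosphatase that lowers glycolytic flux, was at −0.34 between alcohol and control, with an adjusted p of 0.414 by edgeR.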

How the data were processed

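RNA was sequenced from 6 libraries of H9-derived hiPSC-CMs, grouped by the treatment in their labels. The authors deposited for each library expected counts per gene, which are estimates and need not be whole (33.9% of those above 0 were not), and FPKM, the same estimates scaled by length and depth, and 1 table that gives the FPKM of all libraries with gene symbols. HISAT2 2.0.4, Bowtie2 2.2.5, RSEM 1.2.12 and hg38 are named in the submitters' processing notes, with no role or order; strand and the treatment of multi-mapped reads are not given in the sources used here.

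Expected counts were rounded and fitted with edgeR 4.0.16 (R 4.3.3): TMM, filterByExpr, quasi-likelihood F test, two-sided, group as the factor, all 6 libraries in 1 fit, Benjamini-Hochberg adjustment over 14926 genes at 0.05. The standard error is the log2 fold change over the square root of F. A floor of 3 counts was 0.594 to 0.612 CPM. Intervals and floors rest on these libraries or on counting alone. Alternatives were DESeq2 1.42.0, its size factors in edgeR, limma 3.58.1 on log2(FPKM + 0.1) or log2(FPKM + 1), a minimum of 10 counts everywhere or no filter, the replicate number as a block, the compared groups alone and the omission of each library.

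The genes and lists were chosen with earlier results of these data known. Every gene is named in its role. Values in each library are given for the highest and the smallest-p gene of each role and for the 6 smallest p of each comparison; SLC2A1, SLC16A3, ALDOA and other genes given in full beyond these were chosen after their values were seen. The replicate libraries were distinct (chi-square per degree of freedom 4.46 to 7.31). The replicate numbers were not used as pairs. Coordinates are those of RefSeq GRCh38.p14; GENCODE gave names of pseudogenes and overlapping genes.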

Additional observations from a re-analysis of the deposited data

How the results depend on the processing

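None of the 41 genes was called in the fit reported, so no call could be lost. The counts changed with single libraries of each group. With 1 library left out, the genes called between alcohol and control ranged from 0 to 13, those at an unadjusted p under 0.05 from 7 to 28 and the median log2 fold change from −0.389 to −0.0945. Between co-treated and alcohol the ranges were 0 to 8 called and 2 to 20 at an unadjusted p under 0.05, and between co-treated and control 0 to 1 and 1 to 6. A group left with 1 library was assumed to vary like the others. DESeq2 gave 4 genes at an unadjusted p under 0.05 between co-treated and alcohol, against 351 of all 14926 genes. Between co-treated and control it gave 1, against 1031 of 14926. With limma on log2(FPKM + 1) without a filter there were 5 between co-treated and alcohol, against 4.94% of all genes. With only the libraries of the groups compared, 1 gene (ENO1) was called between co-treated and control, against 1.08% of all genes.

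Over all genes, the differences between replicate 1 and replicate 2 were nearly uncorrelated between groups (−0.016 to 0.114). Of the 41 genes, 87.8% (alcohol), 75.6% (control) and 65.9% (co-treated) were higher in replicate 1, against 49.7%, 49.7% and 51.1% of all genes. Whether the replicate numbers pair the libraries for the 41 genes was not tested. With the replicate block 4 of the 41 genes were called between alcohol and control, against 0.322% of all genes: ENO1 (adjusted p = 0.0260), PGK1 and PFKFB3 (0.0346 each) and LDHA (0.0394). The block gave 25, 16 and 4 genes at an unadjusted p under 0.05 in the 3 comparisons, against 12.6%, 6.52% and 14.1% of all genes, and 0 called in the other 2. The cause of these differences was not tested.

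Each gene at an unadjusted p under 0.05 kept its direction in every alternative: 175 results with 1 library left out and 283 with other settings stayed above an adjusted p of 0.05, and 17 and 5 passed it. Over all genes, the calls between alcohol and control numbered 10 with edgeR, 72 with DESeq2, 0 with limma on log2(FPKM + 1), 2 without a filter, 26 with at least 10 counts, 3 with only the groups compared and 48 with the replicate block. Between co-treated and alcohol they numbered 2 with edgeR and 0 to 5 under the same settings, and between co-treated and control 54 with edgeR, 128 with DESeq2, 2 with limma, 15 without a filter, 78 with at least 10 counts, 158 with only the groups compared and 136 with the block. Other scalings moved the median of all genes by less than 0.1. At a depth of 4898287 to 5051448 counts, HKDC1 and PDK4 were too low to compare.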

Other observations

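Other pathways that border on glycolysis were examined beside the glycogen genes given above. None of the genes in this paragraph passed at an adjusted p under 0.05 by edgeR, DESeq2 or limma between alcohol and control. Of 16 citric acid cycle genes, 1 had an unadjusted p under 0.05, against 11.0% of all genes. It was IDH2, the mitochondrial isocitrate dehydrogenase that uses NADP, at 227 and 236 FPKM in control, 205 and 198 FPKM in alcohol and 211 and 203 FPKM in co-treated (log2 fold change −0.26). The median over the 16 genes was 0.0072. The 7 pentose phosphate genes, the 5 genes of lipoic acid attachment and its client enzymes, and the 5 tested gluconeogenesis genes had none at an unadjusted p under 0.05, with medians of −0.08, 0.17 and −0.06.

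Of 11 genes often used to normalise expression, none passed at an adjusted p under 0.05 by edgeR, DESeq2 or limma between alcohol and control, and 2 were lower at an unadjusted p under 0.05, against 5.78% of all genes. TFRC, the transferrin receptor, was at 17.2 and 16.6 FPKM in control, 12.3 and 9.72 FPKM in alcohol and 11.9 and 12.7 FPKM in co-treated (log2 fold change −0.66 between alcohol and control, adjusted p = 0.121 by edgeR). PPIA, cyclophilin A, was at −0.32 (adjusted p = 0.342). All 4 libraries with alcohol lay below both control libraries for both genes.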
